A study of Mus musculus with 12 samples.

Results

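The genes described here lie on mouse chromosome 6, within 10 Mb on either side of Gt(ROSA)26Sor, in bases 103067428 to 123077333 of GRCm38. Of the 43629 genes in the count table, 240 have at least 1 base in this window, and 103 of them reached 10 or more raw counts in at least 4 of the 8 marginal zone (MZ) libraries. Of the others, 136 were below that minimum, 68 of them with no count in any of the 12 libraries, and the ribosomal protein gene Rpl32 was left out by name. The window was centred on Gt(ROSA)26Sor because that gene differed most between Zfp36l1-deficient and control MZ cells. The values of the 103 genes in that comparison are therefore a description, with no p-value for any single gene. Counts of genes called in it, meaning an edgeR adjusted p under 0.05, are given beside the share of all genes called, and they too only describe the window. The follicular (FO) libraries took no part in choosing the genes, but the MZ libraries did. Genes named by their call between the MZ groups were compared with FO in those same MZ libraries. Their p-values against FO are thus no independent support for that call.

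RNA was sequenced from B cells sorted out of the mouse spleen, in 3 groups of 4 libraries. The deficient MZ cells (replicates 1, 2, 7 and 8) carried 2 floxed alleles of Zfp36l1 and 1 copy of ERT2cre, which encodes a recombinase that acts when bound by an oestrogen receptor ligand. The control MZ cells (replicates 3, 4, 5 and 6) carried 2 copies of ERT2cre, and their label names no floxed allele. The FO cells (replicates 3, 4, 7 and 8) carried 2 floxed alleles and no cre. All samples have the strain label Zfp36l1tm1.1Tnr. The sort used B220, CD93, CD21 and CD23, with high CD21 and no CD23 for MZ, and with CD21 and CD23 for FO. The labels give neither the insertion site of ERT2cre nor whether it was driven by a B cell promoter, and they state no age, no ligand treatment and no number of animals. The spread between replicates may thus be technical. For MZ libraries 5 ng of RNA was used and reads were 100 bp pairs, whereas the design text gives another kit and 100 bp single reads for FO libraries. The extraction protocol, however, names the same kit for all samples. Between MZ and FO libraries, cell type, genotype, read layout and any difference of kit therefore cannot be told apart.

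Gt(ROSA)26Sor is a gene for a noncoding RNA made in nearly all mouse cells, and its first intron is a widely used landing site for transgenes. MZ B cells sit at the edge of the splenic white pulp and respond fast to blood-borne antigen, whereas FO B cells recirculate through the follicles. ZFP36L1 is an RNA-binding protein that attaches to AU-rich elements in 3′ untranslated regions (UTRs) and promotes decay of the bound mRNA. Among the 103 genes, 89 code for proteins and 14 are noncoding genes or pseudogenes. They stand on both strands, 57 on the plus strand and 46 on the minus strand. The window is uneven, with 15 genes at lower and 86 at higher coordinates than Gt(ROSA)26Sor. Thumpd3 overlaps it, and lies with it at distance 0.

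Depth was 28938453 to 40664963 counts per library, and the 103 genes held 0.568 to 0.590% of the counts in deficient MZ, 0.570 to 0.578% in control MZ and 0.520 to 0.540% in FO libraries. Zfp36l1 stood at 22.0, 31.8, 28.1 and 37.5 CPM (counts scaled to a common library total) in deficient MZ libraries, at 116, 110, 118 and 126 CPM in control MZ libraries and at 369, 396, 352 and 361 CPM in FO libraries. Summed markers of B cells lay at 14900 to 16799 CPM in deficient MZ, 13881 to 14839 CPM in control MZ and 13175 to 14123 CPM in FO libraries. The 7 MZ markers summed to 7445 to 7799 CPM in deficient MZ and 7928 to 8304 CPM in control MZ, against 1861 to 2042 CPM in FO libraries. Of these 7, 2 were called higher and 1 lower in deficient than in control MZ cells, beside 2.29% and 1.4% of all tested genes. The 6 FO markers summed to 1367 to 1673 CPM in deficient MZ, 1017 to 1152 CPM in control MZ and 5210 to 5472 CPM in FO libraries, and 5 of these 6 were called higher in deficient than in control MZ cells. The 7 T cell markers summed to 2.24 to 4.62 CPM in deficient MZ, 0.890 to 1.02 CPM in control MZ (with Cd3e and Cd4 at 0) and 0.759 to 1.83 CPM in FO libraries. Macrophage and monocyte markers summed to 25.5 to 35.9 CPM in deficient MZ, 23.9 to 27.8 CPM in control MZ and 13.8 to 30.0 CPM in FO libraries, and erythroid markers to 7.21 to 24.9 CPM in deficient MZ, 1.19 to 10.7 CPM in control MZ and 1.85 to 7.12 CPM in FO libraries. Dendritic cell markers stayed at or under 16.9 CPM, and plasma cell markers summed to 186 to 231 CPM in deficient MZ, 201 to 220 CPM in control MZ and 97.7 to 123 CPM in FO libraries. The part of these markers in the differences below was not tested. In sorted populations measured in bulk, fewer cells of a type and less RNA per cell cannot be told apart.

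Gt(ROSA)26Sor (ENSMUSG00000086429, bases 113067428 to 113077333, minus strand) has 4 transcripts in GENCODE M21, which begin with different first exons. The first exon of Gt(ROSA)26Sor-201, the longest of them with 1181 bases in 2 exons, is shown as an example of sequence from the gene whose level differed most. The counts are per gene and do not tell the transcripts apart. The exon covers chr6:113077068-113077210 on the minus strand, 143 bases, printed 5′ to 3′ in the direction of transcription, with no base set apart.
Gt(ROSA)26Sor exon 1: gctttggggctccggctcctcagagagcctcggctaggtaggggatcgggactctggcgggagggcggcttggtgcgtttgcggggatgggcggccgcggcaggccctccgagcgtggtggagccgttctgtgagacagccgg

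Gt(ROSA)26Sor RNA was high in FO cells, intermediate in deficient MZ cells and lowest in control MZ cells. It was measured at 19.5, 17.9, 14.2 and 18.2 CPM in deficient MZ libraries, at 0.840, 0.321, 0.645 and 0.510 CPM in control MZ libraries and at 31.9, 27.6, 32.3 and 33.3 CPM in FO libraries. These are 666, 641, 611 and 567 raw counts in deficient MZ, 34, 12, 27 and 20 in control MZ and 1016, 872, 1065 and 1185 in FO libraries. No 2 of the 3 groups overlapped. The deficient MZ mean was 55.8% and the control MZ mean 1.85% of the FO mean. Those means belong to cells with 1 copy of ERT2cre in deficient MZ, 2 copies in control MZ and none in FO, so the order of the levels ran opposite to the number of copies. Copy number, floxed allele and deletion differ together between deficient and control MZ cells and cannot be told apart. The log2 difference was 4.88 (SE 0.21) for deficient over control MZ, which is 29.5-fold. The log2 differences against FO, whose genotype carries no cre, were −0.82 (SE 0.10) for deficient MZ and −5.73 (SE 0.18) for control MZ. Per kilobase of exon, Gt(ROSA)26Sor ranked 91st of the 103 genes in control MZ cells, with 10.3 CPM per kb in deficient MZ, 0.342 in control MZ and 18.5 in FO cells.

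**Figure D1:**
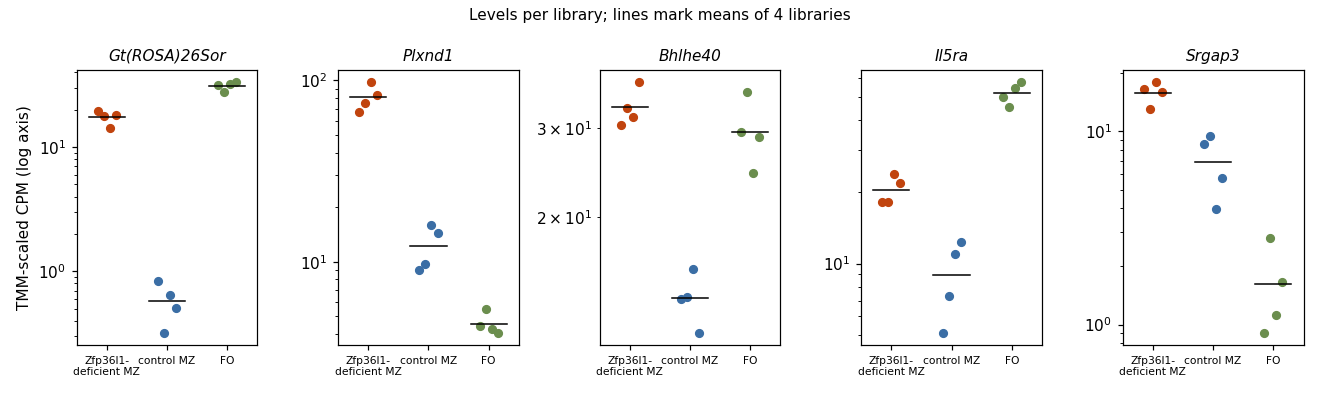
TMM-scaled CPM (log axis) of 5 genes in each of the 12 libraries, with deficient MZ, control MZ and FO libraries from left to right. Points are libraries and lines are means of 4. Gt(ROSA)26Sor lies under 1 CPM in all 4 control MZ libraries, and Plxnd1 and Srgap3 are highest in deficient MZ, whereas Gt(ROSA)26Sor and Il5ra are highest in FO.

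The genes that flank Gt(ROSA)26Sor showed no such gap between the MZ groups. Thumpd3, which encodes a transfer RNA methyltransferase, lies on the opposite strand and its span overlaps 846 bases of Gt(ROSA)26Sor. It stood at 87.1, 87.4, 78.6 and 79.7 CPM in deficient MZ libraries, at 76.8, 77.5, 81.2 and 80.5 CPM in control MZ libraries and at 70.1, 69.3, 64.4 and 66.0 CPM in FO libraries. The deficient and control ranges overlapped, and the log2 difference was 0.07 (SE 0.06). Setd5, a chromatin regulator with a SET domain, starts 31 bases beyond the other end of Gt(ROSA)26Sor. Its levels were 59.4, 66.7, 72.1 and 60.1 CPM in deficient MZ, 68.8, 71.3, 63.2 and 60.2 CPM in control MZ and 275, 281, 294 and 273 CPM in FO libraries. The deficient over control difference of Setd5 was −0.04 (SE 0.08) on the log2 scale. Both MZ groups lay far below FO, with log2 differences of −2.09 (SE 0.07, adjusted p = 5.16e-11) for deficient MZ and −2.08 (SE 0.06, adjusted p = 2.93e-11) for control MZ. Exons on the other strand cover 8.55% of the exon bases of Gt(ROSA)26Sor, and no source used here gives the strand setting of the counting, so a small share of its reads could come from Thumpd3 or the reverse.

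Within 0.5 Mb of Gt(ROSA)26Sor lie 21 of the 103 genes, and 2 of them, Gt(ROSA)26Sor itself and Srgap3, were called at an adjusted p under 0.05 between deficient and control MZ cells, a threshold that 3.7% of all tested genes passed. The other 19 were not called, with log2 differences from −0.33 to 0.80. Their number includes the DNA repair factors Rad18, Ogg1 and Fancd2, the acetyltransferase complex subunits Brpf1 and Tada3, the actin nucleator subunit Arpc4, the membrane protein insertion factor Emc3, the phosphatase gene Mtmr14, the kinase gene Camk1 and the receptor gene Il17rc. Of the 19, 15 had a mean of at least 1 CPM in MZ cells, and their log2 differences ran from −0.33 (Camk1) to 0.30 (Creld1). All 32 genes that lie between Gt(ROSA)26Sor and Plxnd1 went uncalled by edgeR (0 called), with log2 differences from −0.55 to 0.80. Of these 32, 5 had an unadjusted p under 0.05 and DESeq2 called 2. This stretch was singled out after its values were seen.

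Srgap3 (bases 112717971 to 112947266, minus strand), which encodes a GTPase-activating protein for small GTPases, stood at 16.6, 13.1, 18.0 and 15.9 CPM in deficient MZ libraries, at 8.65, 9.45, 3.99 and 5.71 CPM in control MZ libraries and at 0.910, 2.82, 1.12 and 1.66 CPM in FO libraries. No group overlapped another. The log2 difference was 1.18 (SE 0.22) for deficient over control MZ. Against FO it was 3.32 for deficient MZ (SE 0.26, adjusted p = 1.12e-07) and 2.11 for control MZ (SE 0.35, adjusted p = 0.000136). Within the control group, replicates 3 and 4 lay above replicates 5 and 6.

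Across the whole window, 14 of the 103 genes (13.6%) were called between deficient and control MZ cells, 8 higher and 6 lower. Among all 13987 tested genes 517 were called, which is 3.7%, with 2.29% higher and 1.4% lower, and on the rest of chromosome 6 26 of 596 were called (4.36%). Because the window was placed with this contrast, nothing is read from the share. The groups did not overlap for 22 of the 103 genes, 8 of which were not called, and for 11.9% of all tested genes. The median log2 difference of the 103 genes was −0.00, equal to that of all tested genes at 2 decimals. A log2 difference of more than 1 in either direction was seen for 6 genes, and 5 of them were called. The sixth, the receptor tyrosine kinase gene Ret, had 20, 7, 6 and 3 counts in deficient MZ libraries, 23, 19, 40 and 25 in control MZ libraries and 5, 14, 3 and 4 in FO libraries. Its log2 difference was −1.40 (SE 0.48) for deficient over control MZ, and these ranges overlapped only at replicate 1 of the deficient group.

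**Figure D2:**
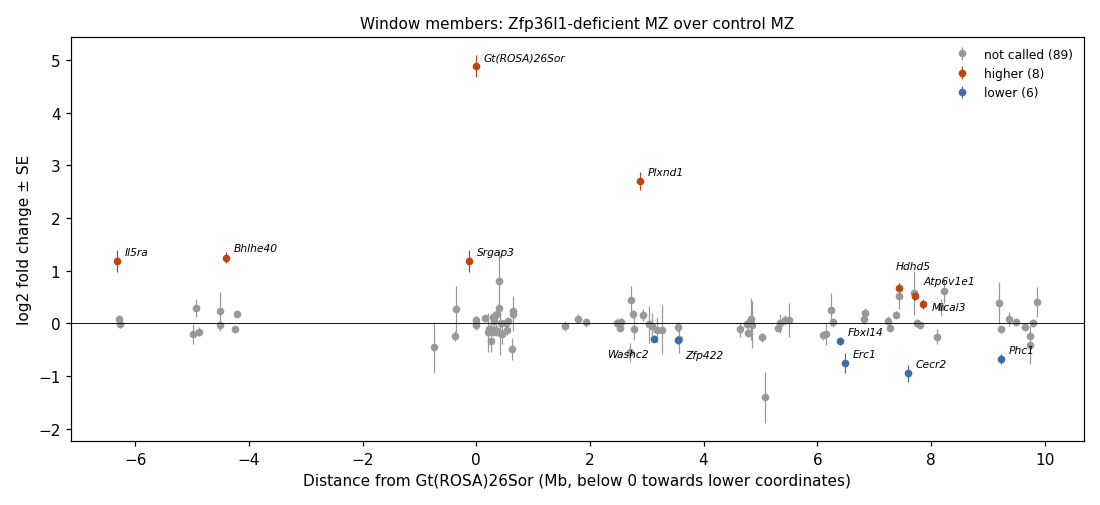
Log2 difference of deficient over control MZ cells (vertical axis, with SE bars) against distance from Gt(ROSA)26Sor in Mb (horizontal axis) for all 103 genes, coloured by call. Called genes are spread over the window, from Il5ra at its lower end to Phc1 near its upper end, and most genes next to Gt(ROSA)26Sor lie near 0.

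Called genes lay at every distance from Gt(ROSA)26Sor, and nothing is read from the order of their shares. Under 1 Mb from Gt(ROSA)26Sor, 2 of 28 genes were called (7.14%), between 1 and 5 Mb 4 of 34 (11.8%) and from 5 Mb on 8 of 41 (19.5%). The median size of the log2 difference, without its sign, was 0.17 under 1 Mb, 0.12 from 1 to 5 Mb and 0.23 from 5 Mb on, against 0.14 for all tested genes. The called shares by distance come from the contrast that placed the window and were not tested. They stand beside 3.7% called among all tested genes and 4.36% on the rest of chromosome 6. Gt(ROSA)26Sor itself is among the 2 called under 1 Mb. On the side of lower coordinates lie 3 called genes (Il5ra, Bhlhe40 and Srgap3), and 10 lie on the side of higher coordinates.

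Plxnd1 and Il5ra encode cell surface receptors. Plxnd1 (bases 115954811 to 115995005, minus strand) codes for plexin D1, which binds class 3 semaphorins. It stood at 66.8, 75.3, 97.9 and 83.2 CPM in deficient MZ libraries, at 9.07, 9.74, 16.0 and 14.3 CPM in control MZ libraries and at 4.42, 5.50, 4.25 and 4.08 CPM in FO libraries. Every deficient library was above every control library, and every control library above every FO library. The deficient over control log2 difference was 2.71 (SE 0.17), which is 6.54-fold. Against FO cells Plxnd1 was higher by 4.18 on the log2 scale in deficient MZ cells (SE 0.14, adjusted p = 3.49e-11) and by 1.44 in control MZ cells (SE 0.19, adjusted p = 1.54e-05). Those 2 comparisons share the FO libraries with each other and the MZ libraries with the contrast that placed the window. In these libraries Plxnd1 was thus a gene with little RNA in FO and control MZ cells, at 0.625 and 1.68 CPM per kb, and with 11.1 CPM per kb in deficient MZ cells.

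Il5ra (bases 106710357 to 106749037, minus strand) codes for the alpha chain of the interleukin 5 receptor, through which interleukin 5 acts on B-1 cells, activated B cells and eosinophils. Its levels were 18.1, 18.1, 23.7 and 21.8 CPM in deficient MZ, 5.14, 7.31, 11.0 and 12.3 CPM in control MZ and 49.9, 45.1, 54.5 and 57.5 CPM in FO libraries. The 3 groups did not overlap, and within the control group replicates 3 and 4 lay below replicates 5 and 6. Deficient MZ cells exceeded control MZ cells by 1.19 on the log2 scale (SE 0.21). Both MZ groups were below FO, by a log2 difference of −1.31 in deficient MZ (SE 0.11, adjusted p = 1.62e-07) and of −2.52 in control MZ (SE 0.21, adjusted p = 2.24e-07). Unlike Plxnd1, Il5ra was therefore highest in FO cells, as Gt(ROSA)26Sor was.

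Bhlhe40 (bases 108660629 to 108666925, plus strand) encodes a basic helix-loop-helix transcriptional repressor that is induced in many activated lymphocytes. It stood at 30.5, 32.9, 31.5 and 37.0 CPM in deficient MZ libraries, at 13.7, 13.9, 15.8 and 11.8 CPM in control MZ libraries and at 29.5, 35.4, 24.4 and 28.7 CPM in FO libraries. Control MZ libraries were lowest, and the deficient MZ and FO ranges overlapped. The deficient over control log2 difference was 1.25 (SE 0.10). Control MZ cells had less Bhlhe40 RNA than FO cells, by a log2 difference of −1.09 (SE 0.12, adjusted p = 2.73e-06), and deficient MZ and FO cells differed by 0.19 (SE 0.11, adjusted p = 0.119), which did not pass the test. Without FO replicate 4, whose level was the highest of its group, that last difference passed.

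The other 3 genes higher in deficient than in control MZ cells lie close together, 7 to 8 Mb from Gt(ROSA)26Sor. Hdhd5 encodes a protein of the haloacid dehalogenase family. It stood at 59.3, 54.1, 56.2 and 64.6 CPM in deficient MZ, 33.3, 36.2, 39.6 and 36.3 CPM in control MZ and 39.3, 39.8, 36.5 and 35.0 CPM in FO libraries. Deficient MZ libraries lay above all others, and control MZ and FO libraries overlapped. The log2 difference of Hdhd5 was 0.68 (SE 0.08) against control MZ and 0.67 (SE 0.07, adjusted p = 2.97e-06) against FO, and control MZ differed from FO by −0.04 (SE 0.07, adjusted p = 0.596).

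Atp6v1e1, a subunit of the vacuolar proton pump that acidifies endosomes and lysosomes, had the same order of groups. Its levels were 100, 93.4, 82.6 and 89.9 CPM in deficient MZ, 58.4, 59.4, 67.4 and 68.8 CPM in control MZ and 72.4, 65.7, 63.3 and 67.0 CPM in FO libraries. The log2 difference was 0.52 (SE 0.08) for deficient over control MZ, 0.48 for deficient MZ over FO (SE 0.07, adjusted p = 3.49e-05) and −0.07 for control MZ over FO (SE 0.07, adjusted p = 0.349). Mical3, a monooxygenase that acts on actin and vesicle traffic, stood at 21.6, 24.1, 23.5 and 24.3 CPM in deficient MZ, 16.9, 17.9, 16.9 and 20.5 CPM in control MZ and 11.4, 13.5, 11.8 and 12.1 CPM in FO libraries. None of its groups overlapped, and the deficient over control log2 difference was 0.37 (SE 0.09).

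**Figure D3:**
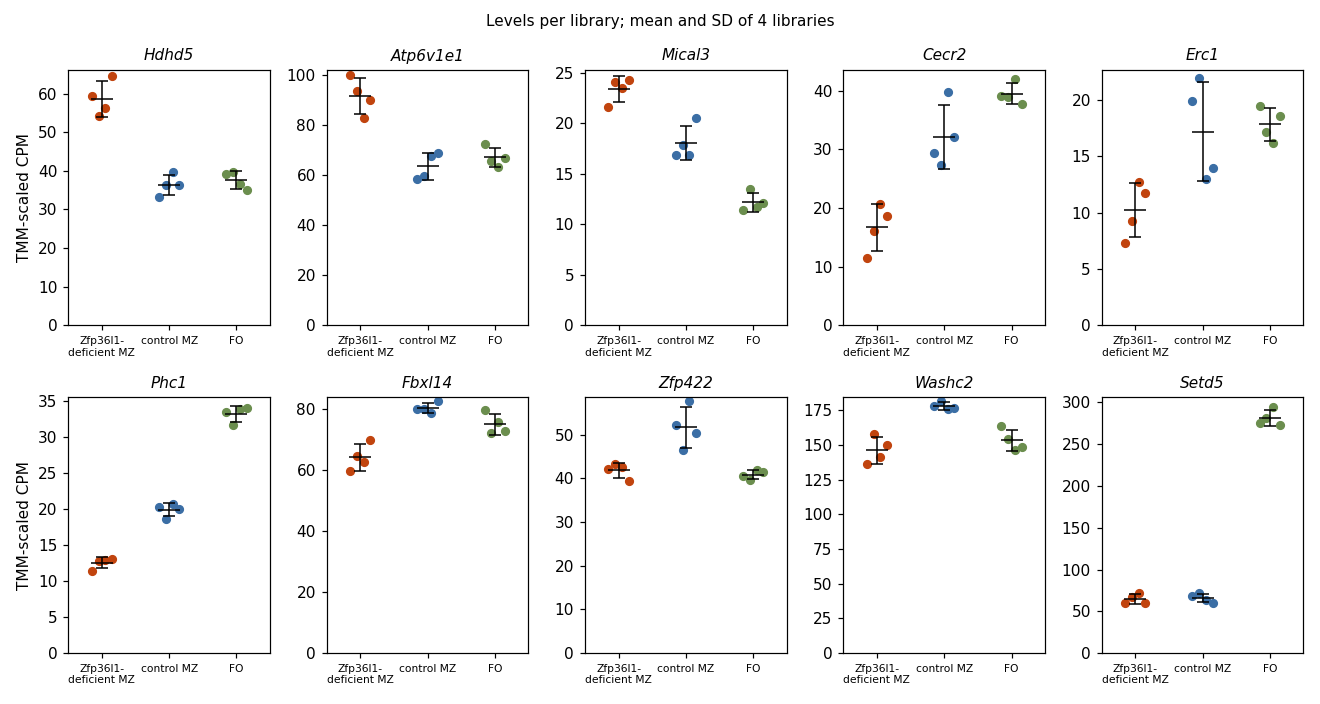
TMM-scaled CPM (linear axis from 0) of 10 genes in each of the 12 libraries, with deficient MZ, control MZ and FO libraries from left to right, and the mean and SD of 4 libraries. Hdhd5 and Atp6v1e1 are highest in deficient MZ cells, Cecr2 and Phc1 lowest in deficient MZ cells, and Setd5 is alike in both MZ groups and higher in FO.

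Of the 6 genes lower in deficient MZ cells, 3 belong to the transcription and chromatin genes (Cecr2, Phc1 and Zfp422). Cecr2 codes for a bromodomain protein that partners chromatin remodelling ATPases. It stood at 11.4, 16.0, 20.6 and 18.6 CPM in deficient MZ libraries, at 29.4, 27.3, 39.8 and 32.1 CPM in control MZ libraries and at 39.1, 39.0, 42.0 and 37.7 CPM in FO libraries. Deficient libraries lay below all others, and control replicate 5 lay within the FO range. The log2 difference of Cecr2 was −0.95 (SE 0.16) for deficient over control MZ, −1.21 for deficient MZ over FO (SE 0.14, adjusted p = 5.02e-06) and −0.29 for control MZ over FO (SE 0.10, adjusted p = 0.016). The last of these did not pass without control replicate 3 or without control replicate 4. Nor did it pass in 1 edgeR fit of all 12 libraries (log2 difference −0.30, adjusted p = 0.0661).

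Phc1, a subunit of Polycomb repressive complex 1, had a level in each group set apart from the next. It stood at 11.4, 12.8, 12.9 and 13.0 CPM in deficient MZ, 20.3, 18.6, 20.7 and 20.1 CPM in control MZ and 33.5, 31.7, 33.9 and 34.0 CPM in FO libraries. The log2 difference was −0.67 (SE 0.09) for deficient over control MZ, −1.38 for deficient MZ over FO (SE 0.08, adjusted p = 4.09e-09) and −0.73 for control MZ over FO (SE 0.06, adjusted p = 2.47e-07).

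Erc1, a scaffold protein of vesicle docking and of nuclear factor kappa B signalling, stood at 7.35, 9.25, 12.7 and 11.7 CPM in deficient MZ, 19.9, 22.0, 13.0 and 13.9 CPM in control MZ and 19.5, 17.2, 16.2 and 18.6 CPM in FO libraries. The deficient and control ranges came within 1 CPM of each other, at deficient replicate 7 and control replicate 5. Its deficient over control log2 difference was −0.75 (SE 0.19), and its call was lost without any 1 of deficient replicates 1, 2 and 8 or control replicates 3 and 4. Fbxl14, the substrate-binding subunit of a ubiquitin ligase, had 59.6, 64.8, 62.5 and 70.0 CPM in deficient MZ, 80.1, 80.1, 78.9 and 82.7 CPM in control MZ and 79.6, 72.2, 75.7 and 72.7 CPM in FO libraries, and a deficient over control log2 difference of −0.33 (SE 0.07). Its call was lost without control replicate 4 or 6.

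Zfp422, a zinc finger gene, and Washc2, a subunit of the complex that branches actin on endosomes, showed the smallest called differences. Zfp422 stood at 42.2, 43.3, 42.7 and 39.3 CPM in deficient MZ, 52.4, 46.5, 57.7 and 50.3 CPM in control MZ and 40.5, 39.5, 41.8 and 41.5 CPM in FO libraries. Washc2 stood at 136, 158, 141 and 150 CPM in deficient MZ, 178, 182, 176 and 177 CPM in control MZ and 164, 154, 147 and 149 CPM in FO libraries. For both, the deficient MZ range overlapped FO and lay below control MZ, with deficient over control log2 differences of −0.31 (SE 0.08) for Zfp422 and −0.30 (SE 0.07) for Washc2. The calls were lost without any 1 of deficient replicates 2, 7 and 8 or control replicates 3, 5 and 6 for Zfp422, without any 1 of deficient libraries 7 and 8 or control libraries 3, 4 and 6 for Washc2, and without any 1 of deficient libraries 2, 7 and 8 or control libraries 3, 4 and 5 for Mical3. The 9 other calls held when any 1 library was left out.

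The heptamer TATTTAT, the core of the AU-rich elements that proteins of the ZFP36 family bind, was searched in the transcript sequence of the longest annotated 3′ UTR. It was found in 28 of 89 window genes with a 3′ UTR (31.5%), against 3344 of 11408 tested genes (29.3%). Among window genes it was found in 3 of the 7 called higher with a 3′ UTR, 3 of the 6 called lower and 22 of the 76 not called (28.9%). Among all tested genes it was found in 101 of 289 called higher (34.9%) and 59 of 191 called lower (30.9%). Neither Plxnd1, with 929 bases of 3′ UTR, nor Bhlhe40, with 1593, nor Il5ra, with 2025, holds these letters in that window. The sites in called genes are shown with 10 bases on each side, 5′ to 3′ on the gene's strand in GRCm38, with the heptamer in capitals, because they are the matches that the called genes carry.
Srgap3, chr6:112722346-112722372, minus strand: tatatatataTATTTATgcatctatat
Atp6v1e1, chr6:120795256-120795282, minus strand: aaatattcttTATTTATtaaaacagag
Mical3, chr6:120998177-120998203, minus strand: taaatgtgtaTATTTATgtgtgtagat
Mical3, chr6:120998131-120998157, minus strand: aggcagatacTATTTATctatactgtg
Cecr2, chr6:120770971-120770997, plus strand: gggggaatggTATTTATttttatattg
Erc1, chr6:119573835-119573861, minus strand: gttaggatctTATTTATtctcataagg
Fbxl14, chr6:119482564-119482590, plus strand: gttaaactgaTATTTATataataaaag
The first 3 of these genes were higher and the last 3 lower in deficient MZ cells, and the flanks differ from site to site. A match is only a description of the letters and was not tested as a binding site.

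Grouped by role, the calls between deficient and control MZ cells were spread over several groups, beside 3.7% called among all tested genes, and nothing is read from their share. In the group of cytokine receptor and innate immune genes 1 of 5 was higher (Il5ra). Il17ra, a receptor chain for interleukin 17, had 336, 317, 347 and 351 CPM in deficient MZ and 304, 290, 304 and 299 CPM in control MZ, with a log2 difference of 0.17 (SE 0.06) that was not called although the groups did not overlap. None of the 7 DNA repair and editing genes was called (0 by edgeR, 0 by DESeq2, 2 at an unadjusted p under 0.05). Rad18, a ubiquitin ligase of damage tolerance, had a log2 difference of −0.24 (SE 0.09), and the cytidine deaminase gene Apobec1 one of 0.03 (SE 0.06). Of 14 transcription and chromatin genes, 1 was higher and 3 were lower. Of 15 signalling and cytoskeleton genes, 3 were higher and 1 was lower. Of 29 genes of organelles, RNA processing and protein handling, 2 were higher and 0 were lower by edgeR, with 8 at an unadjusted p under 0.05 and 3 called by DESeq2. The median log2 difference was 0.30 in the first of these groups, −0.10 for DNA repair, −0.10 for transcription and chromatin, 0.03 for signalling and 0.00 for organelles, against −0.00 for all tested genes.

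Between MZ and FO cells most window genes differed, as most genes did. In deficient MZ cells against FO, 80 of 97 tested window genes were called (82.5%), 44 higher and 36 lower, beside 81.3% of all tested genes (42.9% higher and 38.4% lower). In control MZ cells against FO, 78 of 98 were called (79.6%), 44 higher and 34 lower, beside 81.5% of all tested genes (42.6% higher and 38.8% lower). These shares are near the background and are not a result about the window. By distance, 23 of 26, 22 of 33 and 35 of 38 were called in deficient MZ against FO, and 25 of 27, 23 of 31 and 30 of 40 in control MZ against FO, for genes under 1 Mb, 1 to 5 Mb and 5 Mb or more from Gt(ROSA)26Sor.

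**Figure D4:**
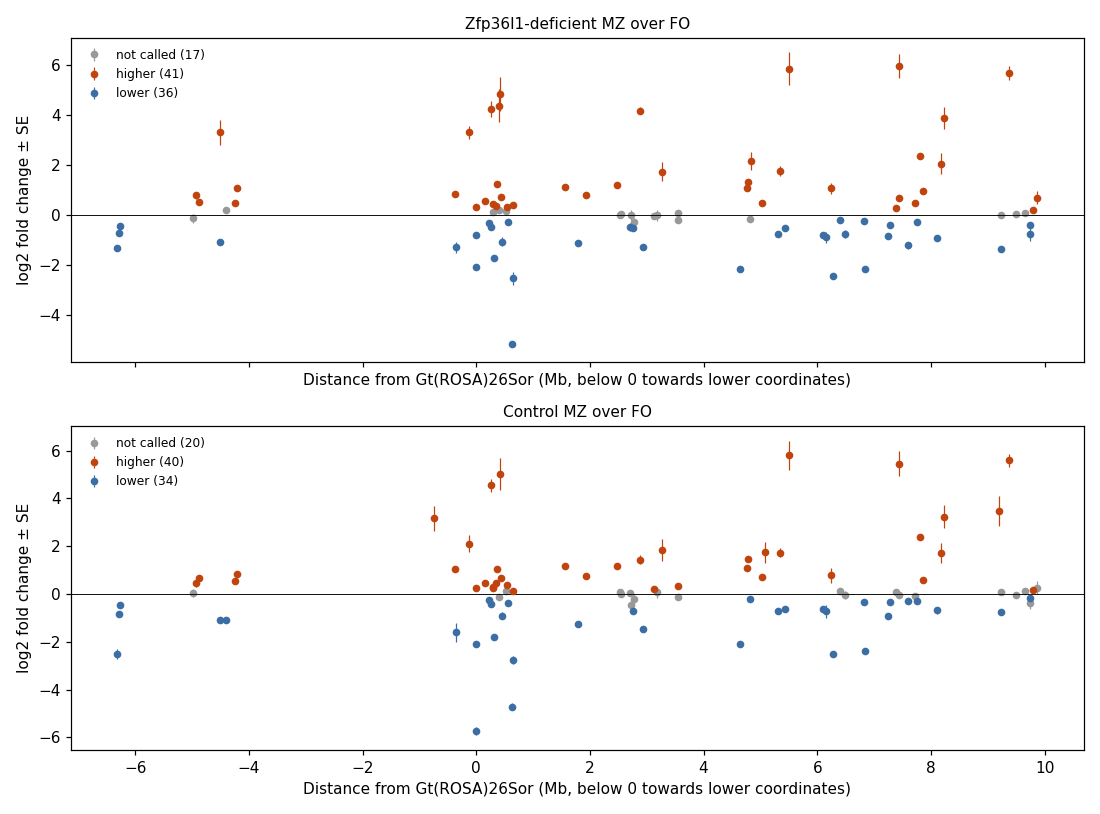
Log2 difference of deficient MZ over FO (top) and control MZ over FO (bottom) on the vertical axis, with SE bars, against distance from Gt(ROSA)26Sor in Mb for tested window genes, coloured by call. Genes with no count in any FO library are left out. Higher and lower genes occur along the whole window, with Tatdn2 low in both panels, and Gt(ROSA)26Sor is far below 0 in the lower panel only.

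Among genes whose log2 CPM averaged 3 or more, those furthest below FO were Tatdn2, Adipor2, Gm7292 and Wnk1 in deficient MZ, and Gt(ROSA)26Sor, Tatdn2, Il5ra and Adipor2 in control MZ. Tatdn2, of the TatD nuclease family, stood at 2.75, 4.44, 3.02 and 3.07 CPM in deficient MZ and 5.58, 5.68, 3.75 and 3.49 CPM in control MZ, against 123, 113, 124 and 126 CPM in FO libraries. Its log2 difference was −5.16 for deficient MZ (SE 0.12, adjusted p = 2.64e-12) and −4.70 for control MZ (SE 0.14, adjusted p = 2.36e-11). Tatdn2 lies 0.6 Mb from Gt(ROSA)26Sor, and its deficient over control log2 difference was −0.49 (SE 0.22), not called.

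Adipor2, an adiponectin receptor, had a log2 difference of −2.44 for deficient MZ (SE 0.07, adjusted p = 7.03e-12) and −2.49 for control MZ (SE 0.06, adjusted p = 2.4e-12). Wnk1, a kinase of ion transport, stood at 114, 140, 133 and 124 CPM in deficient MZ and 124, 116, 96.3 and 108 CPM in control MZ, against 572, 578, 610 and 573 CPM in FO libraries. Its log2 differences were −2.16 (SE 0.07) and −2.38 (SE 0.08) for deficient and control MZ. In these 3 genes no exon base is shared with an exon on the opposite strand.

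Among genes of that level above FO, Plxnd1 was furthest in deficient MZ, and Bid, the pro-apoptotic BH3 protein, was high in both MZ groups. Bid stood at 321, 274, 262 and 280 CPM in deficient MZ and 277, 290, 310 and 283 CPM in control MZ, against 56.5, 55.9, 59.7 and 53.8 CPM in FO libraries. The log2 difference was 2.36 for deficient MZ (SE 0.07, adjusted p = 1.9e-11) and 2.37 for control MZ (SE 0.05, adjusted p = 2.25e-12). Usp18, an interferon-induced protease that removes ISG15, stood at 77.9, 51.2, 47.9 and 38.4 CPM in deficient MZ and 42.7, 39.6, 39.8 and 51.1 CPM in control MZ, against 2.98, 23.4, 9.57 and 17.0 CPM in FO libraries. Its FO libraries were spread widely, and its log2 differences were 2.05 (SE 0.42, adjusted p = 0.000645) and 1.72 (SE 0.40, adjusted p = 0.00159) for deficient and control MZ. The zinc finger gene Zfp239 was higher by 1.31 in deficient MZ (SE 0.10, adjusted p = 1.28e-07) and by 1.46 in control MZ (SE 0.11, adjusted p = 7.03e-08).

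Of 28 tested genes of organelles, RNA processing and protein handling, 17 were higher and 7 lower in deficient MZ, and 15 higher and 7 lower in control MZ, against FO. Among all tested genes 81.3% were called in deficient MZ (42.9% higher and 38.4% lower) and 81.5% in control MZ (42.6% higher and 38.8% lower). The totals called in the group are near the background, and its split by direction was not tested. Edem1, which directs misfolded glycoproteins to degradation, had 347, 371, 378 and 338 CPM in deficient MZ and 293, 293, 323 and 345 CPM in control MZ, against 179, 176, 176 and 169 CPM in FO libraries. Its log2 difference was 1.07 for deficient MZ (SE 0.06, adjusted p = 3.68e-09) and 0.85 for control MZ (SE 0.06, adjusted p = 3.92e-08). Jagn1, a protein of the endoplasmic reticulum, was higher by 1.26 in deficient MZ (SE 0.10, adjusted p = 1.29e-07) and by 1.06 in control MZ (SE 0.07, adjusted p = 1.85e-08). The median log2 difference of the 28 genes was 0.35 in deficient MZ and 0.16 in control MZ, against 0.06 and 0.05 for all tested genes.

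Of the 7 DNA repair and editing genes, 1 was higher (Rad18) and 4 were lower in deficient MZ against FO, and the counts were again 1 and 4 in control MZ against FO. With 81.3% and 81.5% of all tested genes called, 38.4% and 38.8% of them lower, the counts are not a result about the group. Rad18 stood at 35.8, 33.3, 40.3 and 41.2 CPM in deficient MZ and 47.0, 39.2, 47.4 and 43.1 CPM in control MZ, against 20.4, 18.9, 24.7 and 22.4 CPM in FO libraries. Mbd4, a glycosylase that removes thymine or uracil opposite guanine, stood lower than FO by a log2 difference of −0.51 in deficient MZ (SE 0.06, adjusted p = 9.74e-06) and −0.71 in control MZ (SE 0.06, adjusted p = 3.86e-07). Fancd2 and Ogg1 were also lower in both, whereas Apobec1 differed from FO by 0.04 in deficient MZ (SE 0.05, adjusted p = 0.522) and −0.02 in control MZ (SE 0.05, adjusted p = 0.717). The median log2 difference of the 7 genes was −0.25 in deficient MZ and −0.35 in control MZ.

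Among transcription and chromatin genes, 3 were higher and 7 lower in deficient MZ, and 5 higher and 8 lower in control MZ, of 14 tested against FO. For this and the following groups, 81.3% of all tested genes were called in deficient MZ and 81.5% in control MZ, and the counts are not a result about the groups. Kdm5a, a histone H3 lysine demethylase, had a log2 difference of −0.38 in deficient MZ (SE 0.07, adjusted p = 0.000161) and −0.32 in control MZ (SE 0.05, adjusted p = 0.000137). Of 15 signalling and cytoskeleton genes, 7 were higher and 5 lower in deficient MZ, and 7 higher and 4 lower in control MZ. Itpr1, the calcium channel of the endoplasmic reticulum opened by inositol trisphosphate, stood at 105, 142, 149 and 141 CPM in deficient MZ and 150, 143, 121 and 131 CPM in control MZ, against 277, 293, 305 and 295 CPM in FO libraries. Its log2 difference was −1.09 in both comparisons, with an SE of 0.10 for deficient MZ (adjusted p = 3.18e-07) and 0.07 for control MZ (adjusted p = 2.02e-08). Of the cytokine receptor and innate immune genes, 3 were higher and 2 lower of 5 in deficient MZ, and 1 higher and 2 lower of 4 in control MZ. Irak2, a kinase of interleukin 1 and Toll-like receptor signalling, was lower by log2 differences of −0.30 (SE 0.05, adjusted p = 0.000196) and −0.37 (SE 0.06, adjusted p = 7.68e-05) in deficient and control MZ.

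Genes with no count in any FO library numbered 5 (Gm16161, Gm20404, Gm8203, Depp1 and Fxyd4). Depp1 lies inside the span of Rassf4 on the other strand, Gm16161 inside that of Mtmr14, and Gm20404 and Gm8203 inside that of Tmcc1. The strand setting of the counting is not given, and the kit may differ between MZ and FO libraries. Whether reads from those longer genes entered the MZ counts was not tested, so the folds below are uncertain as measures of expression. Against a floor of 3 counts over the 4 FO libraries, Depp1, with 40 to 82 counts in deficient MZ and 58 to 103 in control MZ, was at least 69.0-fold higher in deficient MZ and at least 84.3-fold higher in control MZ. Gm8203, a pseudogene whose exon bases lie wholly under exons of the other strand, was at least 84.8-fold higher in deficient MZ and at least 87.6-fold higher in control MZ. Genes with over 50% of their exon bases under the other strand had median log2 differences of −0.60 (219 genes) in deficient MZ and −0.63 (224 genes) in control MZ against FO, beside 0.10 and 0.09 for genes with none, so that calls of such genes against FO are uncertain. The 4 window genes of that kind include Rpusd3, Mkrn2 and Gm8203.

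The range of levels in the window was wide. Per kilobase of exon in control MZ cells, the RNA-binding protein gene Hnrnpf ranked 1st, with 179 CPM per kb in deficient MZ, 175 in control MZ and 203 in FO cells. Brk1 and Arpc4, subunits of complexes that take part in actin nucleation, ranked 2nd and 3rd. The calcium channel gene Cacna1c ranked 103rd, with 0.0286 CPM per kb in control MZ. Replicates varied about as much as elsewhere, since the median coefficient of variation of window genes with at least 1 CPM was 9.34% in deficient MZ, 7.88% in control MZ and 6.47% in FO, against 10.4%, 8.59% and 6.49% for all such genes. Of the 103 genes, 95 reached 10 counts in all 8 MZ libraries. Just inside the minimum stood Slc25a18, with 6 to 17 counts in deficient MZ and 6 to 12 in control MZ. Just outside it stood genes such as Pparg, Tmem40 and Gm14335, each with 3 libraries at 10 or more counts.

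The authors' deposited table of deficient against control MZ called 10 window genes higher and 7 lower at an adjusted p under 0.05, beside 4.12% higher and 3.51% lower among all genes with an adjusted p in it. All 14 genes called here are among them in the same direction, and the table adds Creld1, Cand2 and Il17ra. The authors' deposited tables and the calls here rest on the same libraries, so the overlap is no independent support. The log2 fold changes of the authors' deposited table are 3.28 for Gt(ROSA)26Sor, 2.0 for Plxnd1, 1.1 for Bhlhe40 and 0.76 for Il5ra. The edgeR values here are 4.88, 2.71, 1.25 and 1.19 in that order. These estimates come from different programs, and the cause of the gap was not tested. The authors' deposited table of control MZ against FO called 48 window genes higher and 34 lower, beside 36.1% higher and 29.6% lower among all genes with an adjusted p in it, with all 78 genes called here among them in the same direction.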

How the data were processed

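Whole-number raw counts per gene were deposited by the authors, 1 column per library. The submitters' processing notes list GRCm38 and, with no order of steps, DESeq2 1.10.1, HTSeq, Trim Galore and TopHat2 2.0.12. No source used here names the annotation release, the counting mode or the strand setting. The deposited signal is the count divided by 1 factor per library (0.842 to 1.15, computed here). The authors' deposited tables hold log2 fold changes and adjusted p-values, copied where named. Their signed fold and test score columns, also deposited by the authors, were not used.

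Gene coordinates and 3′ UTRs came from GENCODE M21, which 42462 table IDs matched. The 8 libraries of a comparison were fitted by themselves with edgeR 4.0.16 (R 4.3.3): quasi-likelihood test, TMM scaling, filterByExpr by group, and Benjamini-Hochberg adjustment over all tested genes, called at an adjusted p under 0.05. The main fits have no replicate block. SE is the log2 difference over the square root of F. Levels are CPM on 1 TMM scale over 12 libraries. Deficient and control MZ libraries share no replicate number. The biological coefficient of variation was 0.123 for deficient against control MZ, 0.110 for deficient MZ against FO and 0.104 for control MZ against FO. No library columns were identical (0), and replicates differed beyond sampling noise (chi-square per gene 5.78 to 48.6). Control MZ replicates 3 and 4 (6.48) were closer than the other control pairs (17.7 to 22.8). FO replicates 7 and 8 (5.78) were closer than the other FO pairs (17.4 to 25.9). The fits took all libraries of a group as equal replicates, and the cause of these closer pairs was not tested. The procedure was tested on simulated data.

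The window, its genes, the role and marker lists, the tests and the rule for named genes were chosen with earlier results of these data known. Named are the 4 leading genes, every window gene called between deficient and control MZ, genes within 0.5 Mb, the 4 largest called differences each way against FO, the most abundant genes of each role list and those nearest the count minimum. Some genes that this rule names are not reported here. Jagn1, Brk1, Cacna1c, Ret and Depp1 were added after their values were seen. Alternatives were DESeq2 1.42.0, its size factors, no filter on low counts, all 12 libraries in 1 fit, each library left out, the replicate block, other windows and minimums, and any annotated 3′ UTR. The fit of only the libraries with shared numbers, without the block, was chosen after seeing the data.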

Additional observations from a re-analysis of the deposited data

Results flagged for a closer look

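Of 143 checks of a gene within a group of 4 libraries, 8 found 1 library far from the other 3, by a gap above Dixon's critical value. Chance alone flags about 1 in 20 such groups. In deficient MZ replicate 1, Phc1 stood at 11.4 CPM, with the other 3 at 12.8 to 13.0 CPM, and Fancd2 at 1.55 CPM, with the others at 2.37 to 2.43 CPM. In deficient MZ replicate 8, Zfp239 stood at 24.7 CPM, with the others at 23.6 to 23.7 CPM, and Apobec1 at 63.2 CPM, with the others at 60.0 to 60.1 CPM. Creld1 stood at 11.5 CPM in control MZ replicate 6, with the others at 13.9 to 14.2 CPM. In FO replicate 7, Emc3 stood at 47.6 CPM, with the others at 53.9 to 54.9 CPM, and Wnk1 at 610 CPM, with the others at 572 to 578 CPM. Il17rc stood at 0.0562 CPM in FO replicate 8, with the others at 0. The Phc1 call between deficient and control MZ held without deficient replicate 1.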

How the results depend on the processing

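Between deficient and control MZ, leaving out 1 library gave 7 to 8 window genes higher and 3 to 6 lower (8 and 6 with all libraries). The count of 3 lower came without deficient replicate 8 or control replicate 3, 4 or 6. For all genes it gave 171 to 293 higher and 82 to 190 lower (321 and 196 with all libraries). Over all genes DESeq2 called 557 higher and 476 lower, no filter on low counts 307 lower, and 1 fit of all 12 libraries 343 lower. The cause was not tested. DESeq2 called 16 window genes. The called share of window genes was 9.68% with 5 Mb and 9.42% with 20 Mb on each side. Leaving out 1 library moved the Gt(ROSA)26Sor log2 difference between 4.70 and 5.12, Plxnd1 between 2.59 and 2.86, Bhlhe40 between 1.18 and 1.32 and Il5ra between 0.99 and 1.38. No called difference changed its direction, whereas small uncalled ones crossed 0. Without 1 library, deficient over control MZ ran from −0.096 to 0.0064 for Setd5, −0.028 to 0.034 for Emc3, −0.015 to 0.052 for Adipor2, −0.086 to 0.074 for Itpr1, −0.64 to 0.15 for Prrt3 and −0.022 to 0.81 for Gm26799. Deficient MZ over FO ran from −0.043 to 0.026 for M6pr, and control MZ over FO from −0.18 to 0.075 for Erc1, −0.084 to 0.00058 for Hdhd5 and −0.039 to 0.0049 for Apobec1. With no filter on low counts, Emc3 was −0.0032 (deficient over control MZ) and Apobec1 −0.0057 (deficient MZ over FO). No paired analysis was possible for deficient against control MZ because the groups share no replicate number. Against FO, 2 numbers are shared (7 and 8 for deficient MZ, 3 and 4 for control MZ), which the labels do not tie to animals, and same-numbered libraries deviated with correlations of 0.15 and 0.014 for deficient MZ and −0.051 and −0.12 for control MZ. On those libraries the replicate block gave 47 window genes higher and 36 lower in deficient MZ (47 and 36 without the block), and 40 higher and 34 lower in control MZ (42 and 34 without it). Over all genes the block gave 5992 higher and 5365 lower in deficient MZ, and 5393 higher and 4851 lower in control MZ. With the block and without it on those libraries, Zfp422 was −0.012 and −0.0091 in deficient MZ over FO and Erc1 0.21 in control MZ over FO, both opposite in sign to the fit of all 8 libraries. Bhlhe40 and Creld1 (deficient MZ over FO) and Atp6v1e1 and Il17ra (control MZ over FO) became called in both fits, and Fbxl14 and Rpusd3 (deficient MZ over FO) were no longer called. Thumpd3 and Tada3 (control MZ over FO) lost their call with the block, and Usp18 (control MZ over FO) without it, at 1.66 (adjusted p = 0.0612). The block gave Atp6v1e1 −0.21 (adjusted p = 0.0407), and without it the value was −0.21 (adjusted p = 0.0294). Depth limits statements on genes near 10 counts, such as Ret and Il17rc.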
